A study of Mus musculus with 3 samples.

Results

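The genes described here are 10 genes of cholesterol efflux and of the liver X receptor (LXR) program, out of 22350 protein-coding genes on mouse chromosomes 1 to 19 and X. They were taken by their symbols in the GENCODE M1 annotation of the mm9 genome, and the rule uses no measured value, though the genes were chosen with earlier results of these data known: Abca1, Abcg1, Apoe and Pltp, whose products move cholesterol and phospholipid to lipoproteins, Lpl, a lipase, Mylip, a ubiquitin ligase, Scd2 and Srebf1 of fatty acid synthesis, and the nuclear receptors Nr1h3 and Pparg. All 10 were found in the annotation and all 10 passed the minimum of 10 tags.

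Phosphorylation of Ser5 in the carboxy-terminal domain of the largest Pol_II subunit accompanies initiation and early elongation, and it was mapped by ChIP-Seq in primary bone marrow-derived macrophages from female Fvb mice, grown in medium conditioned by L929 cells. Of the 3 libraries, 1 was Ser5 ChIP of untreated cells, 1 was Ser5 ChIP of cells given 10 ng/ml LPS (lipopolysaccharide, a bacterial cell wall component that activates macrophages) for 2 h, and 1 was input, chromatin of untreated cells sequenced without immunoprecipitation. Each condition had 1 library, with no genetic alteration and no input from LPS-treated cells. There was therefore no replicate check and no test, and every interval below is a 95% interval that covers counting error only.

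LXRs are nuclear receptors that bind oxidized derivatives of cholesterol. Together with a retinoid X receptor partner they occupy DNA elements called DR4, a pair of AGGTCA-like half-sites with 4 bases between them, and activate genes for cholesterol export, apolipoproteins and fatty acid synthesis. In macrophages this program unloads the cholesterol taken up with lipoproteins and dead cells, and activation of the cells through Toll-like receptors is known to interfere with it. Pparg, a receptor for fatty acid derivatives, acts upstream of Nr1h3, which encodes LXR alpha.

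Sequences of a pair of genes that differ in the data are shown first. The 250 bases before the annotated TSS of Lpl, lower after LPS, and of Mylip, the member with the highest ratio of LPS to untreated, are printed 5′ to 3′ from the mm9 genome on the strand of the gene. Capitals mark matches on either strand to the letters of the TATA box, the CCAAT box and the GC box, and a match that runs past the TSS is cut there. Which promoters to print was chosen after their values were seen.
Lpl (chr8:71404140-71404389, plus strand): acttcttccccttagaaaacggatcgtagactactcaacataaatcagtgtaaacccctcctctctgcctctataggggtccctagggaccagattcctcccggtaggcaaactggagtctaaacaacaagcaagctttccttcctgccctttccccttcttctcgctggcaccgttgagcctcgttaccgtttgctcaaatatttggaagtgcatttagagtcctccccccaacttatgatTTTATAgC
Mylip (chr13:45484861-45485110, plus strand): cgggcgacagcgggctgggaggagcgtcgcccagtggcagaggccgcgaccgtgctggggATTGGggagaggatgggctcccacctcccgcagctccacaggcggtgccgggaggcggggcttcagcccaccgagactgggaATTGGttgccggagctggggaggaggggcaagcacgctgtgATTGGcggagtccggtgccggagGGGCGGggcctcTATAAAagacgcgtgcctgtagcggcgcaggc

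Motifs were searched on both strands within 250 bases before and 50 bases after the annotated TSS of 22345 coding genes. TCACCCCAC, a form of the sterol response element, matched with at most 1 mismatch in 2 of 10 members, Apoe and Mylip, and in 9.72% of promoters. For Nr1h3 and Srebf1 the annotated TSS is that of a non-coding transcript. The coding TSS of Nr1h3, not part of this count, had a match with 1 mismatch 97 bp before it. The TATA box letters TATAAA were found in 4 of 10 members against 13.4% of promoters. Both counts take either strand and either side of the TSS: the Pltp match lay 39 bp after the TSS, and the Lpl match on the other strand. The CCAAT box was found in 6 of 10 against 37.9%, and the GC box letters GGGCGG in 6 of 10 against 43.5%. The printed promoters differ in these letters: Mylip carried 1 TATA box, 1 GC box and 3 CCAAT box matches before its TSS, whereas Lpl carried 1 TATA box match, on the other strand, and 1 CCAAT box match that runs across the TSS.

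After a search of these promoters a wider one was added for the DR4 element, written as AGGTCA repeated after 4 free bases, 3 kb each side of the 5′-most coding TSS and on both strands. With at most 1 mismatch among its fixed bases it matched 2 of 10 members, Lpl and Mylip, and 5.51% of 22341 windows. With at most 2 mismatches it matched 4 of 10 members and 48.3% of windows, a share of the members no larger than that of all genes. The 2 sites with 1 mismatch are printed on the strand on which they read as the motif, with both half-sites in capitals.
Lpl (chr8:71405082-71405111, minus strand): tatagggAGGTCAccacCGGTCActacagc
Mylip (chr13:45482634-45482663, minus strand): aaacttgAGGTCAttgtAGGTTAagtaggg

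Counting positions from 1 at the 5′ end of the motif, with the letter of the motif first, the Lpl site differed by A11C and the Mylip site by C15T. The Lpl site lay in an intron 699 bp after the TSS, inside an untreated Ser5 peak and outside every LPS peak. Within 250 bp of its centre there were 46 untreated tags, 11 LPS tags and 1 input tag. The Mylip site lay at -2470 bp from the TSS, outside the peaks of both lists, with 2 untreated tags, 0 LPS tags and 2 input tags. A match is a stretch of letters only, and no binding of a receptor was measured.

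The first comparison asked how Ser5 over the gene body, from the annotated start to the annotated end, differed after LPS. Ser5 was at least 2 times lower in the LPS library at 5 of 10 members, Scd2, Apoe, Lpl, Pltp and Abcg1, and at least 2 times higher at 0. Over the 17386 genes with at least 10 tags in both Ser5 libraries together, 11.3% were at least 2 times lower and 5.83% at least 2 times higher. This background, here and below, was not matched to the members for coverage. Untreated Ser5 per kb was above that of 46.7% of coding genes at Pparg and of 67.2% (Abca1) to 99.1% (Scd2) at the other members. The effect of coverage on these shares was not tested. The median ratio (LPS over untreated) was 0.587 for the members and 0.874 for all genes tested. Scaling the libraries to their tags outside all Ser5 peaks raised the median of all genes to 0.941, a shift of 0.11 on the log2 scale, and that of the members to 0.632. The same count of 5 members was at least 2 times lower with that scaling, against 8.97% of genes.

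Ser5 values are given below as densities, in tags per 1000000 tags of the library on these chromosomes (TPM) and per kb of region length. Those chromosomes held 7616771 untreated Ser5 tags, 6249819 Ser5 tags after LPS and 7533308 input tags. Ratios to the input depend on the scaling: scaled to the tags outside all Ser5 peaks, they are 1.91 times as large for untreated Ser5 and 2.06 times as large for LPS. All 6 LPS response markers, Tnf, Il1b, Cxcl10, Ccl5, Nfkbia and Tnfaip3, were higher in the library labelled LPS, by 6.17 to 396 times. The macrophage markers were all covered, but 4 of 6 (Csf1r, Cd68, Itgam, Lyz2) were at least 2 times lower in the LPS library, 1 of 6 (Emr1) was at least 2 times higher, and their summed level was 1964 TPM untreated and 1965 TPM after LPS. In bulk chromatin fewer cells of a type and less Pol_II per cell cannot be told apart, and the part of these markers in the results was not tested. T cell, B cell, neutrophil, fibroblast, adipocyte and hepatocyte markers had summed levels of 2.23 to 31.4 TPM untreated and 1.60 to 26.1 TPM after LPS, each list below its own level in the input, 7.17 to 72.2 TPM.

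**Figure D1:**
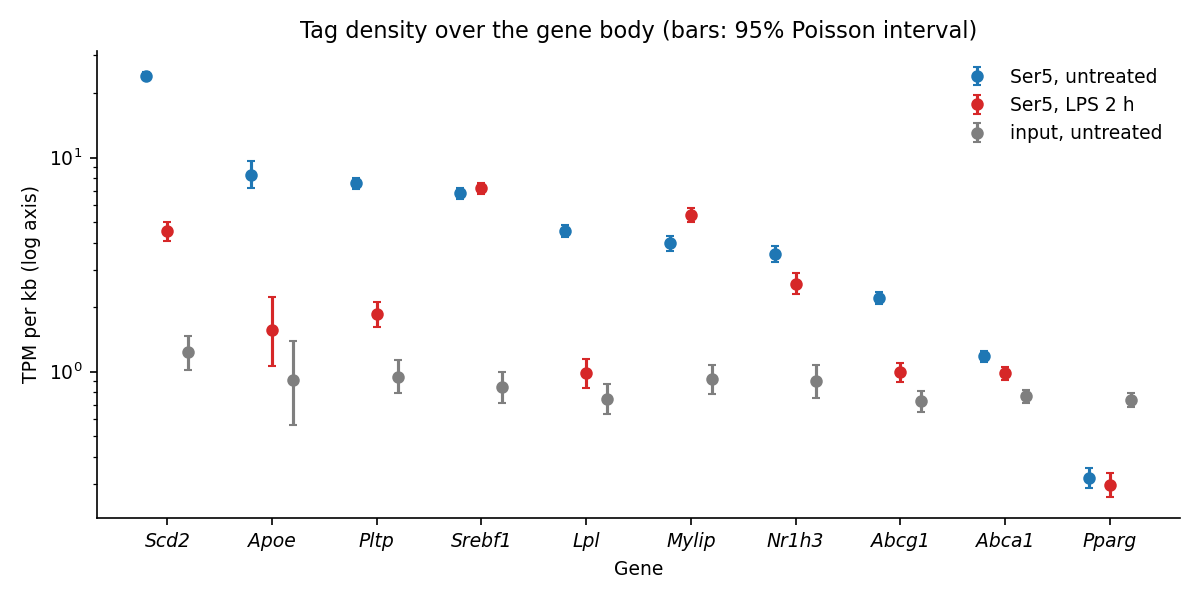
Tag density over the gene body of each member, in TPM per kb on a log axis, for untreated Ser5, Ser5 after LPS and input; each point is 1 library and bars are 95% Poisson intervals for counting error. Scd2 has the highest untreated density, 24.1 TPM per kb, and Pparg lies below the input in both Ser5 libraries.

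Scd2 encodes a stearoyl-CoA desaturase, which makes monounsaturated fatty acids (ENSMUSG00000025203.5, chr19:44368166-44381354). Its gene body held 2422 untreated tags, 374 LPS tags and 122 input tags, or 24.1, 4.54 and 1.23 TPM per kb. The LPS density was 5.31 times lower (4.76 to 5.94) but still 3.70 times the input. Untreated, 99.1% of all coding genes had a lower density than Scd2, and its ratio of 0.188 was lower than that of all but 0.811% of the genes tested.

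Apoe encodes apolipoprotein E, an acceptor of exported cholesterol (ENSMUSG00000002985.9, chr7:20281458-20284515). It held 194 untreated, 30 LPS and 21 input tags, or 8.33, 1.57 and 0.912 TPM per kb. The LPS density was 5.31 times lower (3.60 to 8.08), the same figure as for Scd2, from far fewer tags. After LPS it was 1.72 times the input, an interval of 0.954 to 3.16, and 3.55 times (1.96 to 6.52) when scaled to tags outside peaks, so that whether Ser5 was above the input depends on the scaling. At its TSS window the interval lay above 1 with either scaling, at 2.53 times (1.45 to 4.55) over all tags.

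Lpl, lipoprotein lipase, which releases fatty acids from triglyceride-rich lipoproteins, had 932 untreated, 166 LPS and 152 input tags (ENSMUSG00000015568.8, chr8:71404390-71431347). Its densities were 4.54, 0.985 and 0.748 TPM per kb, 4.61 times lower after LPS (3.90 to 5.47). The LPS density was 1.32 times the input (1.05 to 1.65).

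Pltp, phospholipid transfer protein, which remodels lipoprotein particles, had 1052 untreated, 210 LPS and 130 input tags (ENSMUSG00000017754.7, chr2:164665018-164683211). Its densities were 7.59, 1.85 and 0.948 TPM per kb, 4.11 times lower after LPS (3.54 to 4.79). The 3′ end of Pltp overlaps Ctsa over 8.33% of the gene, and tags there cannot be divided between the genes. Without the bases of other genes the ratio moved from 0.243 to 0.283. Cut into 10 equal parts, Pltp held 248 untreated and 29 LPS tags in the ninth and 380 and 49 in the last. Their ratios were 0.143 (0.0935 to 0.210) and 0.157 (0.114 to 0.212). The second to eighth parts had 24 to 61 untreated tags each and ratios of 0.0831 to 0.891. The overlap with Ctsa lies in the last part only, and the ninth is next to it. Many of the gene-body tags thus came from the end near Ctsa, and how much of the Ser5 there is Pltp's own was not tested.

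The cholesterol exporters Abcg1 and Abca1 differed from each other. Abcg1, which passes cholesterol to HDL, had 977 untreated, 360 LPS and 318 input tags (ENSMUSG00000024030.6, chr17:31194643-31252722), a density 2.23 times lower after LPS (1.97 to 2.52). Abca1, which loads cholesterol and phospholipid onto lipid-poor apolipoproteins, had 1160 untreated, 792 LPS and 746 input tags (ENSMUSG00000015243.4, chr4:53043659-53172767). The Abca1 ratio was 0.832 (0.759 to 0.912), against 0.449 for Abcg1 (0.397 to 0.507), and the intervals did not overlap. Untreated Ser5 was 1.54 times the input at Abca1 and 3.04 times at Abcg1, and after LPS 1.28 and 1.36 times. The part of background tags in the difference between these genes was not tested. The Abca1 ratio lay close to the median of all genes, 0.952 times that value.

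The receptors and regulators differed less between the libraries. Nr1h3 had 509 untreated, 303 LPS and 128 input tags (ENSMUSG00000002108.4, chr2:91024218-91042991), a ratio of 0.725 (0.627 to 0.838). Other genes, Gm13783 and U6, cover 36.6% of its body. The first of 10 equal parts, beside the TSS of Acp2, held 201 untreated and 143 LPS tags, which cannot be divided between the genes. After the first kb the Nr1h3 ratio was 0.638 (0.526 to 0.772). Srebf1, a transcription factor of fatty acid and sterol synthesis genes, had 1217 untreated, 1055 LPS and 150 input tags (ENSMUSG00000020538.8, chr11:60012591-60036083), a ratio of 1.06 (0.972 to 1.15). Its interval included 1, and 94.6% of coding genes had a lower untreated density.

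Mylip encodes a ubiquitin ligase that marks the LDL receptor for degradation (ENSMUSG00000038175.9, chr13:45485111-45507388). It had 673 untreated, 751 LPS and 155 input tags, or 3.97, 5.39 and 0.924 TPM per kb. Its ratio of 1.36 (1.22 to 1.51) was the highest of the 10 members, stayed under the 2-fold rule and was higher than that of 84.4% of the genes tested.

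Pparg had 314 untreated, 240 LPS and 715 input tags over its long gene body (ENSMUSG00000000440.6, chr6:115311239-115440419), a ratio of 0.932 (0.784 to 1.11). Both Ser5 densities were under the input, at 0.434 times (0.379 to 0.497) untreated and 0.405 times (0.348 to 0.469) after LPS. Scaled to tags outside peaks these became 0.831 and 0.833, with both intervals still under 1. Untreated Ser5 was above the input, by intervals that excluded 1, at 9 of 10 members with either scaling. After LPS it was above at 8 of 10 members over all tags and at 9 of 10 with tags outside peaks, the added member being Apoe. The share of all coding genes above the input was not computed, so these counts describe the members only.

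**Figure D2:**
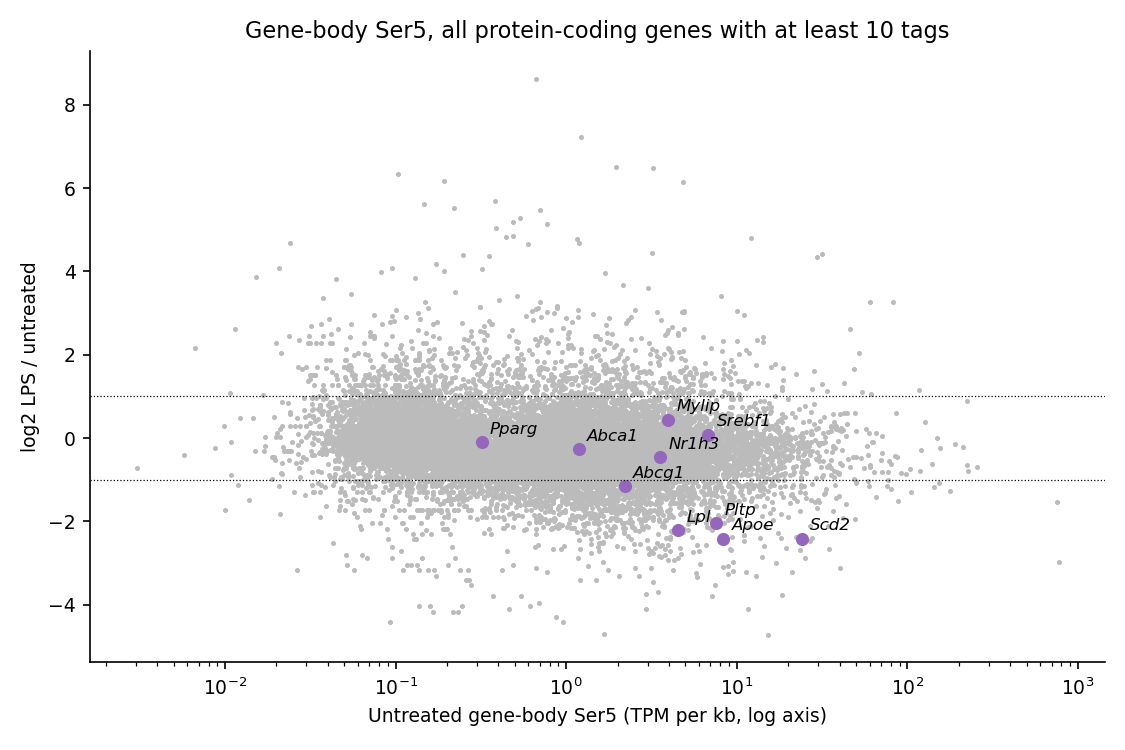
Each gray point is a protein-coding gene with at least 10 tags, by its untreated gene-body Ser5 in TPM per kb (log axis) and its log2 ratio of LPS to untreated; members are named and dotted lines mark the 2-fold rule. Scd2, Apoe, Lpl and Pltp lie between -2.41 and -2.04 at untreated densities of 4.54 to 24.1 TPM per kb, below the lower dotted line, while Mylip and Srebf1 lie above 0.

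The second comparison took the annotated TSS with 1 kb on each side, where initiating Pol_II accumulates. Ser5 was at least 2 times lower after LPS at 4 of 10 members and at least 2 times higher at 0, against 14.1% and 5.58% of the 12535 genes with at least 10 tags there. The median ratio was 0.639 for the members and 0.831 for all genes tested.

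Lpl had 277 untreated, 54 LPS and 7 input tags at the TSS, a ratio of 0.238 (0.174 to 0.319). Scd2 had 828, 187 and 38 tags, a ratio of 0.275 (0.234 to 0.323). Apoe had 178, 42 and 20 tags, a ratio of 0.288 (0.200 to 0.404). These 3 genes and Pltp, with 232, 72 and 36 tags and a ratio of 0.378 (0.286 to 0.495), were lower at the TSS as over the gene.

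Abcg1 had 111 untreated, 55 LPS and 12 input tags at the TSS, a ratio of 0.604 (0.429 to 0.842). Abca1 had 105, 58 and 11 tags, a ratio of 0.673 (0.480 to 0.936). At the TSS the intervals of these exporters overlapped, unlike over the gene body. Mylip had 363, 401 and 9 tags, a ratio of 1.35 (1.17 to 1.56), and Pparg had 39, 38 and 20 tags, a ratio of 1.19 (0.739 to 1.91).

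The annotated start of Nr1h3 belongs to a non-coding transcript and lies 51 bp from the TSS of Acp2 on the other strand, so the 295 untreated and 218 LPS tags of that window cannot be divided between the genes. At the coding TSS of Nr1h3, 7683 bp further in, there were 100 untreated, 63 LPS and 15 input tags, a ratio of 0.768 (0.551 to 1.06). Srebf1 starts with a non-coding transcript as well, with 376 untreated, 251 LPS and 28 input tags and a ratio of 0.814 (0.691 to 0.957). Its coding starts 1977 bp and 12116 bp further in had ratios of 1.09 (0.928 to 1.29) and 0.745 (0.604 to 0.916), and the coding start at 15393 bp, with 67 untreated and 57 LPS tags, had a ratio of 1.04 with an interval that included 1. Intervals for the first pair were separate, but with 500 bp each side, at 0.888 (0.733 to 1.07) and 0.695 (0.549 to 0.875), they overlapped.

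**Figure D3:**
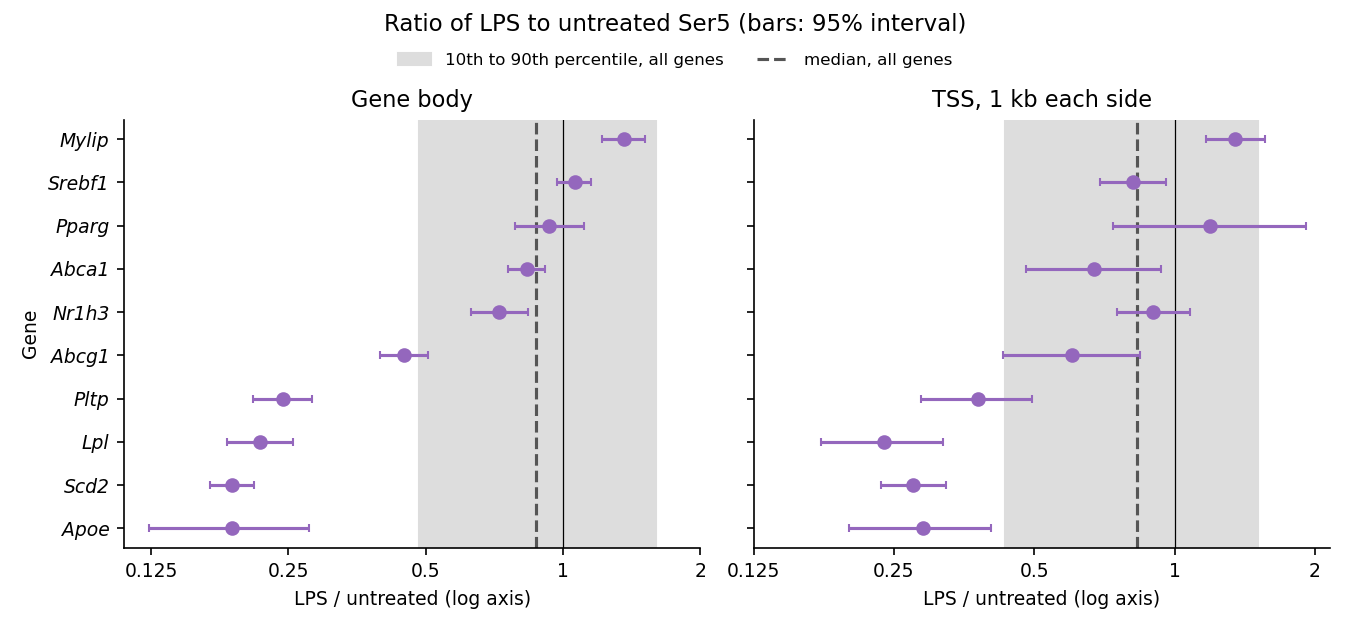
Ratio of LPS to untreated Ser5 (log axis) for each member over the gene body and 1 kb each side of the TSS, with 95% intervals for counting error; the band spans the 10th to 90th percentile of all genes tested and the dashed line is their median. Apoe, Scd2, Lpl and Pltp lie left of the band in both panels, and Mylip lies right of the median.

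The shape of Ser5 along the gene was described by the ratio of density at the TSS to density over the rest of the gene. This was not computed over all genes, so the counts describe the members only, with no background share. The ratio was higher after LPS at 7 of 10 members. The intervals were separate only for Scd2, 2.87 (2.64 to 3.12) untreated and 5.25 (4.29 to 6.41) after LPS, and for Pltp, 2.18 (1.88 to 2.52) and 3.68 (2.75 to 4.88). At Scd2 the LPS tags that were left lay nearer the TSS: past the first kb the ratio was 0.151 (0.130 to 0.174). The Pltp value includes the Ctsa overlap, and with 500 bp each side of the TSS its intervals were no longer separate.

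Abca1 showed another shape when each gene was cut into 10 equal parts. In the part at the TSS it had 233 untreated and 114 LPS tags, a ratio of 0.596 (0.472 to 0.749). In the last part it had 75 and 79 tags, a ratio of 1.28 (0.924 to 1.78), and in the sixth and seventh parts the ratios were 1.08 and 1.12. The ratios of Abca1 did not climb steadily along the gene, since the ninth part had 83 and 45 tags and a ratio of 0.661 (0.449 to 0.961). Scd2 and Lpl had ratios under 0.4 in all 10 parts, from 0.0849 to 0.269 and from 0.152 to 0.373. Mylip had ratios over 1 in all 10 parts, from 1.13 to 1.78.

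**Figure D4:**
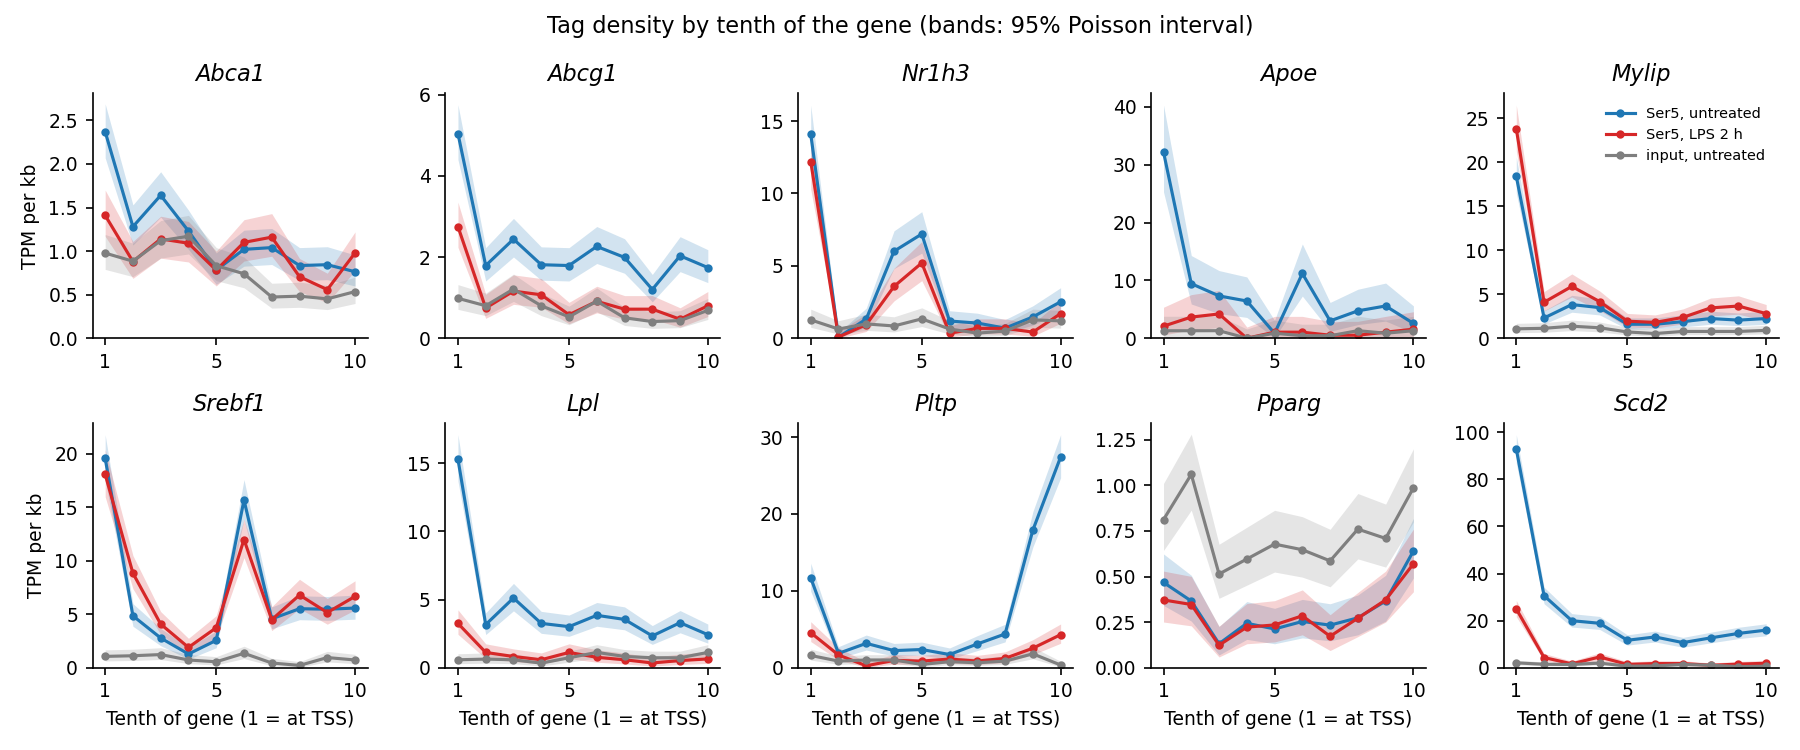
Tag density in TPM per kb along each member, from the TSS (1) to the annotated end (10), for untreated Ser5, Ser5 after LPS and input; each line is 1 library and bands are 95% Poisson intervals. The lines of Scd2 and Lpl are apart in all 10 parts, those of Abca1 meet from the fifth to the seventh part, and the last part of Pltp holds the overlap with Ctsa.

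In the 5 kb past the annotated end, no other gene lay at 6 of 10 members. In the 5 kb past Scd2 there were 537 untreated, 33 LPS and 34 input tags, a ratio of 0.0749 (0.0510 to 0.106). In the 5 kb past Lpl there were 222, 26 and 42 tags, a ratio of 0.143 (0.0912 to 0.215). After LPS these stretches were at 1.17 times (0.702 to 1.95) and 0.746 times (0.439 to 1.25) the input, and at 2.41 times (1.45 to 4.01) and 1.54 times (0.905 to 2.57) when scaled to tags outside peaks, so that for Scd2 Ser5 above the input depends on the scaling. In the 5 kb past Abcg1 there were 110, 37 and 18 tags, a ratio of 0.410 (0.274 to 0.600). In the 5 kb past Mylip there were 81, 78 and 25 tags, a ratio of 1.17 (0.849 to 1.62). Past Abca1 there were 48, 58 and 27 tags, a ratio of 1.47 (0.987 to 2.21), above the 0.832 of its gene body, and past Pparg there were 12, 14 and 33 tags, a ratio of 1.42 (0.610 to 3.37). For Scd2, Lpl and Abcg1 the interval lay under 1, and those of Mylip, Abca1 and Pparg included 1.

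The peak lists, called by the authors in each Ser5 library against the input, held a peak at the TSS of 10 of 10 members untreated and of 9 of 10 after LPS. Over all 22350 coding genes these shares were 48.0% and 45.9%. The exception was Apoe, which had 6 untreated peaks over 81.8% of its length and 0 after LPS, a TSS peak called only untreated being found at 3.11% of coding genes. Untreated peaks covered 94.4% of Scd2, 38.3% of Pltp and 33.0% of Lpl, and LPS peaks covered 11.8%, 8.79% and 1.60%. Lpl went from 15 peaks to 1. Mylip went the other way, from 8 peaks over 14.2% of the gene to 18 over 38.7%, and Srebf1 had 16 peaks over 51.9% and 18 over 56.5%. The study's methods give the same p-value threshold for both lists, but the libraries differ in depth, so peak numbers are a description.

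Extragenic Pol_II, outside every annotated gene and within 50 kb of a member's TSS with no other coding gene's TSS nearer, was taken from the same lists as 27 regions at 8 of 10 members. Because the lists of these libraries chose the regions, their ratios are given with no background and support nothing. LPS Ser5 was at least 2 times lower in 19 of the 27 and at least 2 times higher in 1. Peaks were called only untreated in 16, only after LPS in 1 and in both libraries in 10. Of the 27 regions, 11 lay downstream, centred 767 to 4827 bp past the end of Mylip, Lpl or Scd2, and 9 of these were at least 2 times lower. The study removed peaks within 10 kb of a gene's 3′ end, to take out Pol_II running on from the gene. Here they were kept, so such Pol_II was not separated from extragenic sites. A Scd2 region 493 bp before the TSS lay inside the TSS window of Scd2.

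Pparg had the region with the lowest ratio among those with at least 50 tags, 16737 bp before its TSS (chr6:115294042-115294962), with 68 untreated, 2 LPS and 10 input tags. The ratio was 0.0358 (0.00425 to 0.135), while the TSS of Pparg itself held 39 untreated and 38 LPS tags. A neighboring region had 23 untreated, 3 LPS and 1 input tags. The middle 300 bases are printed from the plus strand of mm9, in lower case because no motif was searched in them.
Pparg (chr6:115294353-115294652, plus strand): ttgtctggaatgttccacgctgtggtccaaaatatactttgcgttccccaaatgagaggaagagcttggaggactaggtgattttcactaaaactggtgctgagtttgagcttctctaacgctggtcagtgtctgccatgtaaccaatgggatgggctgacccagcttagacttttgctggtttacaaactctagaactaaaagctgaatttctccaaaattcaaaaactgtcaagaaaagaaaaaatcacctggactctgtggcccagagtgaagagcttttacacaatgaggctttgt

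Not every region near a lower gene was lower by the same amount. Upstream of Scd2, the region 26326 bp before the TSS had 237 untreated, 144 LPS and 15 input tags, a ratio of 0.740 (0.598 to 0.915), whereas one nearer the gene had 41, 4 and 11 tags, a ratio of 0.119 (0.0309 to 0.328). Upstream of Pltp, the region at 9418 bp had 113, 94 and 11 tags, a ratio of 1.01 (0.763 to 1.34), beside a gene whose body, Ctsa overlap included, was 4.11 times lower. Downstream of Lpl, the largest region had 119, 19 and 13 tags, a ratio of 0.195 (0.113 to 0.317), close to that of the gene itself.

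**Figure D5:**
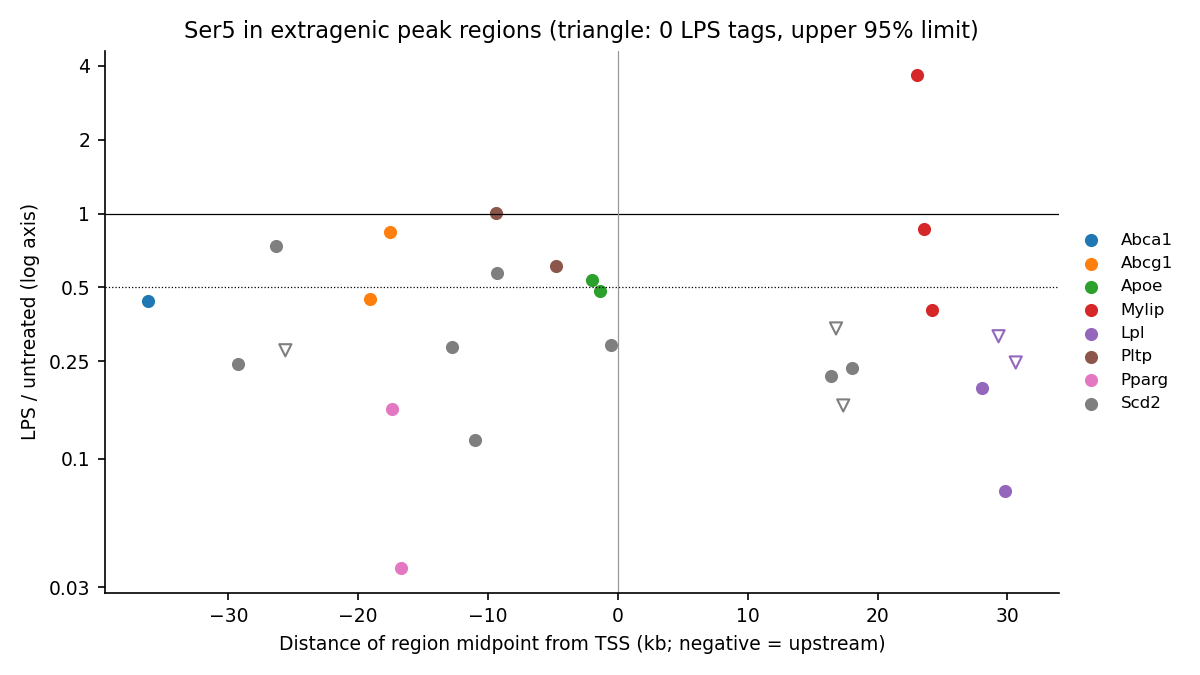
Ratio of LPS to untreated Ser5 (log axis) in the 27 extragenic regions against the distance of the region's midpoint from the member's TSS in kb, negative upstream; triangles are regions with 0 LPS tags, drawn at the upper 95% limit, and the dotted line marks 2-fold lower. The lowest point is the Pparg region with 68 untreated and 2 LPS tags, and the Pltp region at 9418 bp upstream lies at 1.01.

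Other genes of the pathway were taken as 4 lists and read against the same background of 11.3% lower and 5.83% higher. Over the 4 lists 55 of 58 genes passed the minimum, 17 were at least 2 times lower, 1 was at least 2 times higher and the median ratio was 0.752. The median of each list includes genes whose untreated Ser5 was not above the input over all tags. Examples are Ncoa1 among the co-regulators (0.771 times), Cd36 of lipid uptake (0.493 times) and the PPAR target Pdk4 (0.255 times, with 8 untreated and 4 LPS tags).

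Among the receptors and co-regulators, 3 of 13 were at least 2 times lower and 0 higher, with a median of 0.804. Rxra, the partner of LXR, had 844 untreated and 204 LPS tags, a ratio of 0.295 (0.252 to 0.344). At the other end the corepressor Ncor1 had 1351 and 1314 tags, a ratio of 1.19 (1.10 to 1.28), and the corepressor subunit Tbl1x had 603 and 730, a ratio of 1.48 (1.32 to 1.65). Tbl1x had 710 input tags, and its untreated Ser5 was under the input over all tags, at 0.840 times (0.752 to 0.938). Nr1h2, which encodes LXR beta, had 129 and 118 tags and a ratio of 1.11 (0.861 to 1.44).

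Among other LXR targets 14 of 17 passed the minimum, 4 were at least 2 times lower, 1 was higher and the median was 0.787. The count and the median include genes whose Ser5 was not above the input, such as Scd1, at 0.775 times (0.517 to 1.15) untreated. Arl4c, a small GTPase, had 655 untreated and 148 LPS tags, a ratio of 0.275 (0.229 to 0.330), and Scd1, a desaturase related to Scd2, had 47 and 13 with 60 in the input, a ratio of 0.337 (0.167 to 0.633). Tgm2, a transglutaminase, had 217 and 359 tags, a ratio of 2.02 (1.70 to 2.40), and Mertk, a receptor for the uptake of dying cells, had 914 and 1110, a ratio of 1.48 (1.35 to 1.62). These genes were named because their ratios lay at either end of the list.

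Of 16 genes of lipid uptake, storage and lysosomal cholesterol, 5 were at least 2 times lower and 0 higher, with a median of 0.702. Lrp1, an endocytic receptor for apolipoprotein E-containing particles, had 4727 untreated and 334 LPS tags, a ratio of 0.0861 (0.0768 to 0.0962), lower than that of any member. Nceh1, a cholesteryl ester hydrolase, had 2386 and 576 tags, a ratio of 0.294 (0.268 to 0.322). Npc2, which binds cholesterol in lysosomes, had 991 and 1357 tags, a ratio of 1.67 (1.54 to 1.81), and the triglyceride lipase Pnpla2 had 211 and 233, a ratio of 1.35 (1.11 to 1.63).

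Of 12 genes of the PPAR family and its targets, 5 were at least 2 times lower and 0 higher, with a median of 0.618. Angptl4, an inhibitor of lipoprotein lipase, had 94 untreated and 19 LPS tags, a ratio of 0.246 (0.142 to 0.406), and Ppard, a receptor of the same family as Pparg, had 609 and 229, a ratio of 0.458 (0.392 to 0.534). The fatty acid oxidation genes Acadl and Cpt1a were at the other end, Acadl with 142 and 192 tags and a ratio of 1.65 (1.32 to 2.06), and Cpt1a with 805 and 907 and a ratio of 1.37 (1.25 to 1.51). Untreated Ser5 at Acadl was 1.06 times the input over all tags (0.828 to 1.35).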

How the data were processed

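Tags and peaks were used as the authors deposited them. As the study's methods describe, reads were trimmed, aligned to mm9 with Bowtie keeping unique matches, and peaks were called with MACS per library against input. No replicates were pooled, and tool versions are not given in the sources used here. In the deposited peak lists the score, used only as a threshold, is larger for smaller p-values. Deposited tags were 45 bases long for untreated Ser5, 30 for LPS and 36 for input. The methods give the first 2 lengths the other way round.

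Tags were counted by 5′ end on chromosomes 1 to 19 and X, and 84.5%, 81.4% and 82.7% lay at distinct positions and strands. GENCODE M1 is on the same assembly. Intervals are exact (Poisson for counts, Clopper-Pearson conditional on the sum for ratios) and cover counting error only. PCR copies were kept. For the 2-fold rule 0 tags were set to 0.5. Members and lists were chosen with earlier results of these data known. Named list genes are the 2 highest and 2 lowest ratios among genes with at least 50 tags, and others were chosen after their values were seen. The values of 1 such gene, and the sequence and DR4 matches of 1 promoter, are not reported here. Python 3.11.15, numpy 2.4.6, pandas 2.3.3, scipy 1.17.1, numba 0.67.0 and matplotlib 3.10.9 were used. Counting and intervals were tested on simulated data.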

Additional observations from a re-analysis of the deposited data

How the results depend on the processing

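No paired analysis was possible because each condition had 1 library, and for the same reason no library could be left out. With duplicate tags removed, tags moved downstream by 75 bp, scaling to tags outside peaks, unique 30-base positions, other minimums and other regions, the numbers of members at least 2 times lower stayed at 5 over the gene body and 4 at the TSS wherever those were recomputed, as did 0 higher. The gene-body ratio of Scd2 ranged from 0.151 to 0.205, of Apoe from 0.181 to 0.207, of Lpl from 0.217 to 0.234, of Pltp from 0.224 to 0.283 and of Abcg1 from 0.437 to 0.483. At Apoe the TSS ratio was 0.156 with 500 bp each side. The number of members with separate TSS-to-body intervals moved: with 500 bp each side only 1 was higher (Scd2), and 1 was lower, Srebf1, as 1 was with 1 tag per position. Peaks with a score of at least 100 in the genes numbered 49 untreated and 28 after LPS, in place of 80 and 56. With a 1.5-fold rule 5 receptors and co-regulators were lower, and 1 lipid uptake gene (Npc2) and 1 PPAR target (Acadl) were higher. Of all genes, 25.3% were then at least 1.5 times lower and 12% at least 1.5 times higher. Scaling to tags outside peaks, added for other regions after the data were seen, moved LPS Ser5 over input in the 5 kb past the end from 0.529 to 1.09 for Apoe and from 0.511 to 1.05 for Pparg. Depth limits Apoe after LPS, with 30 tags over the gene, and Pparg at the TSS.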

Other observations

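Genes that adjoin the members were not part of the comparisons. The 10 kb past the annotated end of Pltp, of which Ctsa (a lysosomal carboxypeptidase) and Neurl2 cover 87.9%, held 1403 untreated, 293 LPS and 103 input tags, a ratio of 0.255 (0.224 to 0.289). The 10 kb past Nr1h3, of which Madd covers 97.8%, held 401, 155 and 65 tags, a ratio of 0.471 (0.389 to 0.568). These windows hold the neighbors' own Ser5 as well as any that ran past the member.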
